A study of Mus musculus with 24 samples.

Results

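The genes described here are 9 transcription factors of the urothelium, the lining of the renal pelvis, ureter and bladder, as they were measured in whole kidneys of mice with congenital urinary obstruction. They are the grainyhead factors Grhl2 and Grhl3, the forkhead factor Foxa1, the GATA factor Gata3, the ETS factors Elf3 and Ehf, the Kruppel-like factor Klf5, the nuclear receptor Pparg and the p53 relative Trp63. They were chosen by name, as factors known from urothelial biology, among 27958 genes that could be tested. That choice was made with earlier results of these data known. The arrays read these 9 genes with 12 probes, because Grhl2, Trp63 and Ehf have a pair of probes each, and all 12 probes stood well above background on all 24 arrays. The probe with the highest mean signal stands for each gene unless another is named. That choice decides the result for Trp63, and for Grhl2 it decides whether the change in the most affected kidneys reaches 2-fold.

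Kidneys came from male mice of the megabladder line, labelled young adult and, by the study's methods, only a few weeks old, whose homozygous mutants (mgb-/-) have a bladder that does not empty and kidneys swollen by retained urine, a condition called hydronephrosis. RNA of 6 whole kidneys of mgb+/+ animals (control) was compared with that of 18 whole kidneys of age-matched mgb-/- animals. Ultrasound had graded 7 of the mutant kidneys as mild, 5 as moderate and 6 as severe hydronephrosis. The mutant allele sits in the germ line, so every cell of a mutant kidney carries it. Whether left and right kidneys of 1 animal are both among the samples is not stated, so p-values measure the spread between kidneys.

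Each kidney had its own single-colour Agilent array. A level here is the log2 spot signal minus the log2 of that array's 75th percentile, so that 0 is the 75th percentile of the array and 1 unit is a factor of 2, and levels of different probes are not set against each other. A gene was called when limma's moderated test gave an adjusted p under 0.05 over all genes tested and the change was at least 2-fold. Between 55.1% and 70.7% of probes stood well above background on an array, with group medians of 64.8% for control, 63.6% for mild, 63.1% for moderate and 61.3% for severe kidneys. The precision is limited by how many arrays there are. Defining markers of proximal tubule (6 of 6), podocyte (4 of 4) and collecting duct (6 of 7, without Scnn1g) stood well above background on all 24 arrays, as did all 5 uroplakins. Myocd, known from other work as a gene lost in this line, does not serve as a check of genotype here. Its probe, whose place relative to the lesion was not determined, had a mean of -4.07 ± 0.90 (SD) over the 6 control kidneys and of -3.48 ± 0.68 (SD) over the 18 mutant ones (limma adjusted p = 0.248).

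The urothelium is a layered epithelium. Basal cells express Trp63 and the keratins Krt5 and Krt14, and the umbrella cells at the surface carry plaques of uroplakins that keep urine out of the tissue. Foxa1, Gata3, Elf3, Klf5 and Pparg are known to drive urothelial differentiation and uroplakin expression, and Grhl3 is needed for umbrella cells to mature. Grhl2, Gata3, Elf3 and Ehf are also used by other epithelia, the collecting duct of the kidney among them. In RNA of a whole kidney, more cells of a type and more RNA per cell cannot be told apart.

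Most of these factors rose in severe hydronephrosis. Of the 9 factors, 7 rose in severe against control kidneys, namely Grhl3, Foxa1, Klf5, Ehf, Grhl2, Elf3 and Gata3, where 2.99% of all genes tested were called higher. None was called lower, as 1.73% of genes were. The study had listed Grhl3 and Foxa1 as higher in severe than in mild kidneys on these same samples. Counts of these factors in severe kidneys are therefore not independent of that choice. The mean was higher in severe than in control kidneys for 8 of the 9, beside 51.7% of all genes, and the median log2 change of the 9 was 1.08, beside 0.02 over all genes. In mild kidneys Ehf alone rose, and in moderate kidneys no factor was called, although 8 of 9 means were higher there than in controls (46.6% of all genes). The balance of all calls, higher against lower, was 835 against 483 in severe, 321 against 297 in mild and 148 against 56 in moderate kidneys, and with the array median as the scale 538 against 797, 178 against 345 and 64 against 89. Over all mgb-/- kidneys it was 510 against 353, and 344 against 527 on that scale. On that scale 4 of the 9 factors were called in severe kidneys, namely Grhl3, Foxa1, Klf5 and Ehf, while Grhl2 (0.91), Gata3 (0.87) and Elf3 (0.89) were short of 2-fold. The 3 comparisons of a grade with control share the same 6 control kidneys, so they are not independent of one another.

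**Figure D1:**
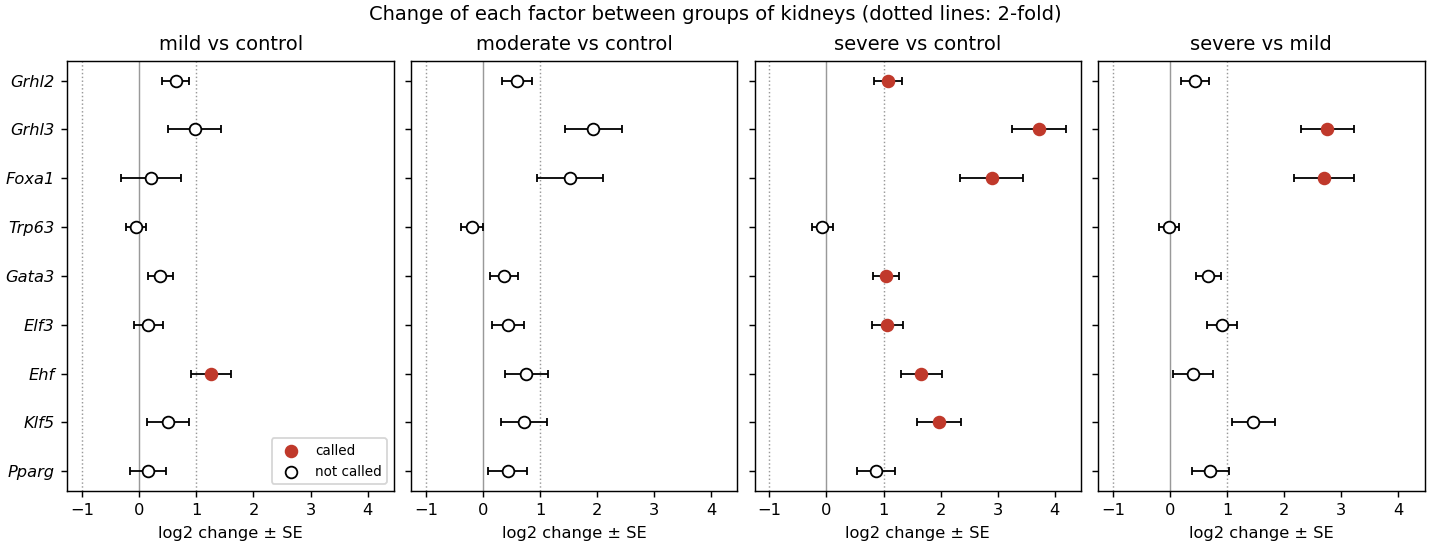
Log2 change of each factor (x axis, with its SE from limma) between the groups named above each panel; filled points were called (adjusted p under 0.05 and at least 2-fold) and the dotted lines mark 2-fold. Filled points number 1 in mild, 0 in moderate and 7 in severe against control kidneys, and 2 in severe against mild kidneys.

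Grhl3, which umbrella cells need in order to mature, had the largest change of the 9. Its level ran from -3.24 over a median of -2.50 to -2.09 in control kidneys and from -3.06 over -1.50 to 0.08 in mild kidneys. Moderate kidneys gave -2.12, -0.71, -0.40, -0.28 and 0.16, and severe kidneys ran from 0.40 over 0.91 to 2.33. All 6 severe kidneys thus lay above every control, mild and moderate kidney, as they did for 2.87%, 0.497% and 0.415% of all genes in turn. Mild kidneys spanned nearly the whole range below them. Against control, Grhl3 rose 13.2-fold in severe kidneys (log2 change 3.72, SE 0.48, limma adjusted p = 1.11e-04), which was rank 28 of 27958 among log2 changes ordered from the highest. The difference between severe and mild kidneys was itself called (2.75, SE 0.46, adjusted p = 0.00589), while moderate kidneys missed the threshold against control (1.94, SE 0.50, adjusted p = 0.0559) although 4 of 5 lay above all controls. In a limma fit on severe and mild kidneys alone the adjusted p of their difference was 0.0787, and none of the 27958 genes was called, with 2508 at an unadjusted p under 0.05. The comparison of moderate with control kidneys passed without mild replicate 1, mild replicate 2, moderate replicate 5, severe replicate 5 or severe replicate 6, with adjusted p between 0.0180 and 0.0474 and changes of 1.94 to 2.30.

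Foxa1, a pioneer factor that opens chromatin at differentiation genes, followed the same kidneys. Controls ran from -3.11 over a median of -1.75 to -1.34, and mild kidneys from -3.44 over -1.95 to 0.29. Moderate kidneys gave -1.73, -0.59, -0.07, -0.05 and 0.33, and severe kidneys ran from -0.02 over 0.76 to 2.15. Every severe kidney lay above every control kidney, but mild replicate 2 (0.29) and moderate replicate 4 (0.33) lay within the severe range. Foxa1 rose 7.44-fold in severe against control kidneys (log2 change 2.89, SE 0.55, limma adjusted p = 0.00263) and 6.48-fold in severe against mild kidneys (2.70, SE 0.53, adjusted p = 0.0151). The call against mild kidneys was lost without severe replicate 2 (2.46, adjusted p = 0.0615) or severe replicate 5 (2.54, adjusted p = 0.0577), with the replicate number as a block (2.61, adjusted p = 0.0762) and in the limma fit on these groups alone (adjusted p = 0.128). Foxa1 differed by 0.20 between mild and control kidneys (SE 0.53, adjusted p = 0.895), where 3 of 7 mild kidneys lay above all controls and the other 4 within or below the control range.

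**Figure D2:**
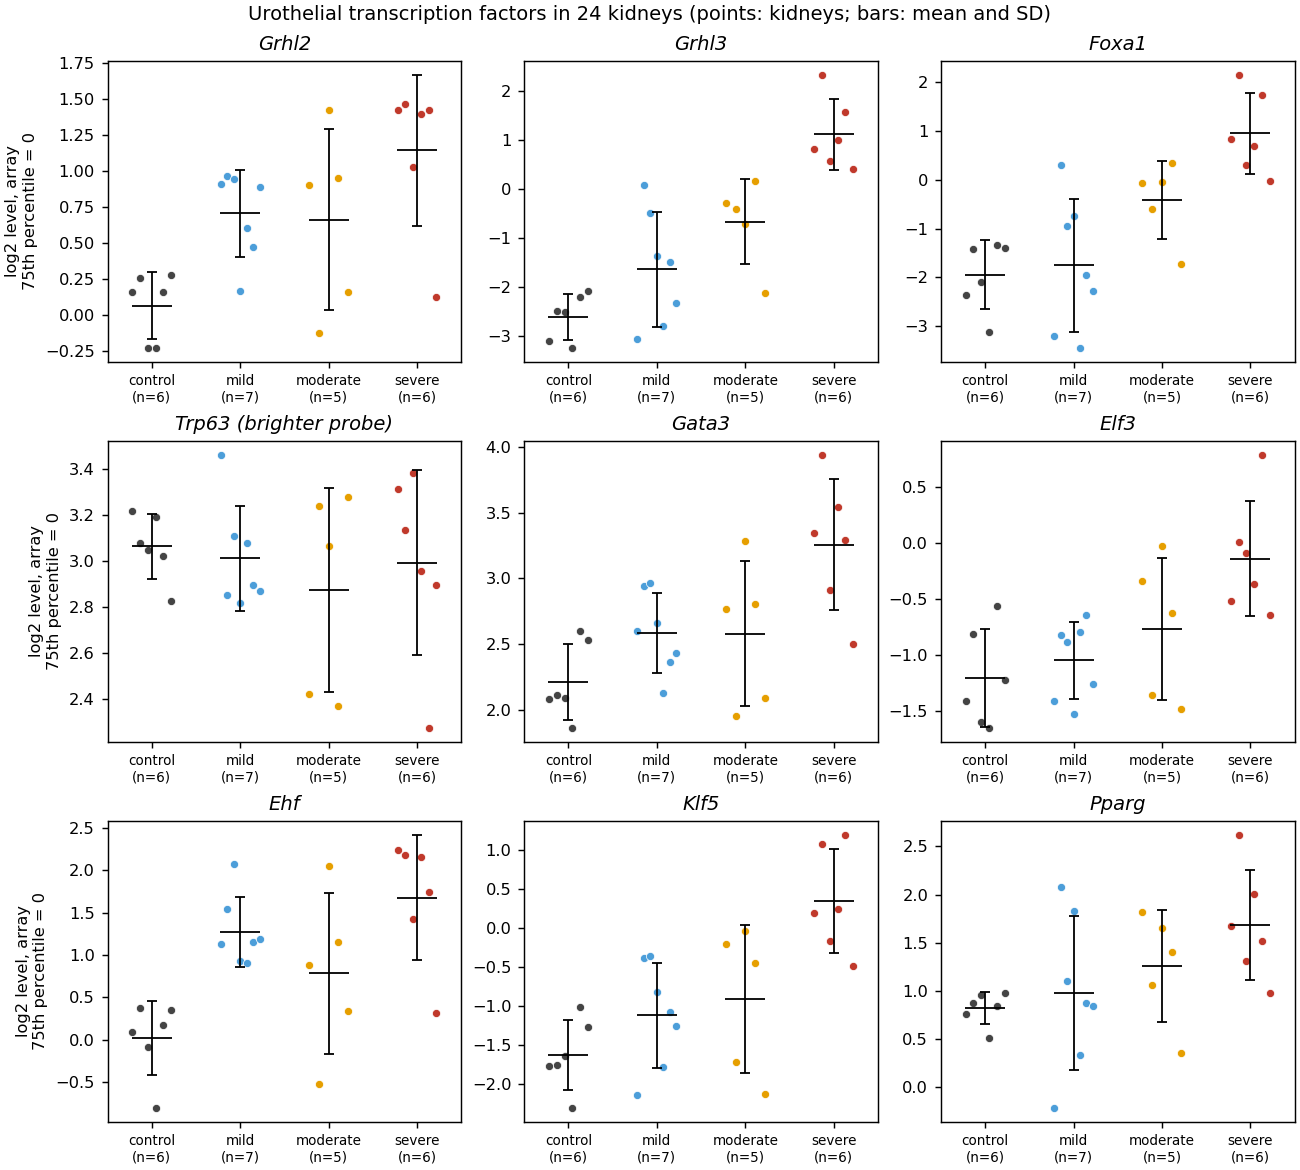
Log2 level of each factor (y axis, 0 is the array's 75th percentile) in each of the 24 kidneys by grade (x axis); points are kidneys, and black bars give the mean and the SD of the group. Severe kidneys lie wholly above controls for Grhl3, Foxa1 and Klf5, mild kidneys lie wholly above controls for Ehf, and the Trp63 panel shows its brighter probe.

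The promoters of Grhl3 and Foxa1 are shown because these genes moved most and moved together from kidney to kidney. The lines below give the 250 bases before the transcription start, from the RefSeq promoter table for GRCm38.p6, on the minus strand of chr4:135573633-135573882 for Grhl3 and the minus strand of chr12:57546112-57546361 for Foxa1. Capitals mark matches to any of 6 short motifs searched on both strands. These were AACCGGTT for grainyhead factors, TGTTTAC for forkhead factors, CCGGAAG for ETS factors, AGGTCA for a single arm of nuclear receptor sites, CCACCC for Kruppel-like factors, and AGATAA for the family of Gata3.
Grhl3: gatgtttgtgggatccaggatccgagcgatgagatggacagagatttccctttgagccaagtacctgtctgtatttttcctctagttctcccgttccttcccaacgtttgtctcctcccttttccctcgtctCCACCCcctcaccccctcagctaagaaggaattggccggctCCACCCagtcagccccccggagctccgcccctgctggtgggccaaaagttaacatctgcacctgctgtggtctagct
Foxa1: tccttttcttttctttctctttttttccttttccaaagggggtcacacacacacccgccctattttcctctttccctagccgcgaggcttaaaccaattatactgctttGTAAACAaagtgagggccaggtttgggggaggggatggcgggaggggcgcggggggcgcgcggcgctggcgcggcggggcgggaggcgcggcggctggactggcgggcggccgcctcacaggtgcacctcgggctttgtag
In the Grhl3 promoter both marked stretches are the Kruppel-like CCACCC, at -118 to -113 and at -77 to -72 from the start. In the Foxa1 promoter the marked stretch is the reverse complement of the forkhead motif, at -141 to -135. Over all 32851 promoters of the table, each 300 bases long with 50 after the start, 31.5% hold CCACCC and 3.65% hold the forkhead motif, so the first match is the more common. Promoters of Grhl2, Trp63, Ehf and Klf5 are not shown here. The table also held promoters of Gata3, Elf3 and Pparg. CCACCC was found in all 3 of these genes (for Pparg in 1 of its 3 listed promoters), and AGGTCA in Pparg alone (16.3% of all promoters). The letters searched for grainyhead, ETS and Gata factors were in none of the promoters of these 5 genes, against 0.146%, 8.86% and 11.2% of all promoters. A match is a description of the letters and says nothing of binding.

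Grhl2, which maintains junctions and barrier in simple epithelia, had a smaller log2 change than Grhl3. Its mild and moderate means were close, with a difference of -0.04 (SE 0.25). Its level ran from -0.23 over a median of 0.16 to 0.28 in controls and from 0.17 over 0.89 to 0.97 in mild kidneys. Moderate kidneys gave -0.13, 0.16, 0.91, 0.96 and 1.42, and severe kidneys ran from 0.13 over 1.41 to 1.47. In mild kidneys 6 of 7 and in severe kidneys 5 of 6 lay above all controls. Grhl2 rose 2.11-fold in severe against control kidneys (log2 change 1.08, SE 0.25, limma adjusted p = 0.00841), and was short of 2-fold on the array-median scale (0.91, adjusted p = 0.0248). Over all 18 mgb-/- kidneys it passed the adjusted p but not the 2-fold minimum (0.78, SE 0.21, adjusted p = 0.0194). The second, dimmer Grhl2 probe had a log2 change of 0.96 (SE 0.29, limma adjusted p over all probes = 0.0311) in severe kidneys, short of 2-fold, so by that probe Grhl2 was not called. Over all mgb-/- kidneys that probe gave 0.67 (SE 0.25, limma adjusted p over all probes = 0.0831).

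Gata3, which marks luminal and intermediate urothelial cells and also forms the nephric duct, ran from 1.86 over 2.10 to 2.60 in controls and from 2.13 over 2.60 to 2.96 in mild kidneys. Moderate kidneys gave 1.95, 2.09, 2.76, 2.81 and 3.28, and severe kidneys ran from 2.50 over 3.32 to 3.94. Of the severe kidneys 5 of 6 lay above all controls, and severe replicate 6 lay within the control range. Gata3 rose 2.06-fold in severe against control kidneys (log2 change 1.04, SE 0.23, limma adjusted p = 0.00804), and its change in mild kidneys was 0.37 (SE 0.23, adjusted p = 0.372). The severe change was just short of 2-fold without control replicate 4 (0.97), severe replicate 2 (0.91) or severe replicate 4 (0.99), with adjusted p no higher than 0.0252, and likewise with normexp background correction (0.95, adjusted p = 0.00841) and on the array-median scale (0.87, adjusted p = 0.0278).

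The ETS factors Elf3 and Ehf both rose in severe kidneys, and Ehf alone of the pair was called in mild ones. Whether the genes differ there was not tested. Elf3, which acts with Pparg and Foxa1 in urothelial differentiation, ran from -1.65 over -1.31 to -0.56 in controls, from -1.53 over -0.88 to -0.64 in mild and from -0.64 over -0.23 to 0.79 in severe kidneys, and gave -1.48, -1.36, -0.62, -0.34 and -0.02 in moderate kidneys. Mild kidneys lay wholly below the highest control, and 5 of 6 severe kidneys lay above it. Elf3 rose 2.10-fold in severe kidneys (log2 change 1.07, SE 0.27, limma adjusted p = 0.0138), and was short of 2-fold without control replicate 3 (0.99), control replicate 4 (0.98) or severe replicate 5 (0.88), with adjusted p no higher than 0.0371. It was also short of 2-fold with normexp background correction (0.86, limma adjusted p = 0.0113), in the authors' own table of values (0.88, adjusted p = 0.0178) and on the array-median scale, where it missed the adjusted p too (0.89, adjusted p = 0.0593).

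Ehf, a factor of many ductal and glandular epithelia, ran from -0.80 over 0.13 to 0.38 in controls and from 0.90 over 1.16 to 2.07 in mild kidneys. Moderate kidneys gave -0.52, 0.34, 0.89, 1.15 and 2.05, and severe kidneys ran from 0.31 over 1.95 to 2.24. All 7 mild kidneys lay above all 6 controls, as they did for 3.0% of all genes, and 1 severe and 2 moderate kidneys lay within or below the control range. Ehf rose 2.39-fold in mild kidneys (log2 change 1.26, SE 0.35, limma adjusted p = 0.0340, where 1.15% of genes were called higher) and 3.15-fold in severe kidneys (1.66, SE 0.36, adjusted p = 0.00658). The difference between severe and mild kidneys was 0.40 (SE 0.35, adjusted p = 0.697). The mild call was lost without control replicate 1, 3, 4 or 5 and without mild replicate 1, 2, 3, 6 or 7, with adjusted p from 0.0506 to 0.0860 and changes from 1.09 to 1.29, as well as on the array-median scale (1.11, adjusted p = 0.0714) and with the replicate number as a block (1.27, adjusted p = 0.0961). The other Ehf probe gave 1.23 (SE 0.33, adjusted p over all probes = 0.0346) in mild and 1.49 (SE 0.35, adjusted p = 0.00998) in severe kidneys.

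Klf5, which is needed for the urothelium to mature, ran from -2.31 over -1.70 to -1.02 in controls and from -2.15 over -1.08 to -0.36 in mild kidneys. Moderate kidneys gave -2.13, -1.72, -0.45, -0.21 and -0.04, and severe kidneys ran from -0.49 over 0.21 to 1.19. Severe kidneys lay wholly above controls, and 5 of 6 lay above all mild kidneys. Klf5 rose 3.92-fold in severe against control kidneys (log2 change 1.97, SE 0.38, limma adjusted p = 0.00334). Against mild kidneys its change of 1.46 (SE 0.37) had a limma adjusted p of 0.0819, and it passed without moderate replicate 5 (adjusted p = 0.0469) or severe replicate 6 (adjusted p = 0.0439). Not overlapping between severe and control kidneys were 3 of the 9 factors (Grhl3, Foxa1 and Klf5) and 2.87% of all genes.

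Pparg, the lipid-sensing nuclear receptor that switches on luminal urothelial genes, was called in none of the 7 comparisons. Controls were tight, from 0.52 over 0.86 to 0.98, while mild kidneys ran from -0.22 over 0.88 to 2.08. Moderate kidneys gave 0.36, 1.06, 1.40, 1.65 and 1.82, and severe kidneys ran from 0.98 over 1.60 to 2.62. Of the severe kidneys 5 of 6 lay above all controls, and mild kidneys lay on both sides of them. The change in severe kidneys was 0.86 (SE 0.33, limma adjusted p = 0.0755), and without severe replicate 6 it was 1.00 (SE 0.34, adjusted p = 0.0330), past the threshold.

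Trp63, the factor of basal urothelial cells, gave different answers by its pair of probes. The brighter probe (A_55_P2161055, matched to NM_001127261) ran from 2.82 over 3.06 to 3.22 in controls, from 2.82 over 2.90 to 3.46 in mild and from 2.27 over 3.05 to 3.39 in severe kidneys, and gave 2.37, 2.42, 3.07, 3.24 and 3.28 in moderate kidneys. All grades overlapped the controls, and the change in severe kidneys was -0.07 (SE 0.18, limma adjusted p = 0.827). The dimmer probe (A_51_P216550, matched to NM_011641) ran from -4.05 over -3.53 to -3.24 in controls, from -4.06 over -3.51 to -1.48 in mild and from -2.46 over -1.15 to -0.22 in severe kidneys, and gave -3.26, -2.52, -1.85, -1.82 and -1.22 in moderate kidneys. Its severe kidneys lay wholly above its controls, as did 3 of 7 mild and 4 of 5 moderate kidneys.

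With the dimmer probe in place of the brighter one, an alternative chosen after its values were seen, Trp63 rose 2.40 on the log2 scale in severe against control kidneys (SE 0.42, limma adjusted p = 0.00130), 1.92 in severe against mild kidneys (SE 0.40, adjusted p = 0.0220) and 1.39 in all mgb-/- against control kidneys (SE 0.47, adjusted p = 0.0484). Then 8 of the 9 factors would be called higher in severe kidneys. With the mean of both probes the severe change was 1.16 (adjusted p = 0.00107). Trp63 lies on chromosome 16. Of its 5 named neighbours on either side in the RefSeq order, Cldn16 and Tmem207 lay above all 6 controls in all 18 mgb-/- kidneys (log2 changes of 1.70 and 2.12, adjusted p = 9.22e-09 and 6.48e-05). How many of all genes were separated in this way is not given here. Tprg, the nearest named gene on the other side, rose by 1.79 in severe kidneys (SE 0.57, adjusted p = 0.0379), while P3h2, the nearest on the side of Cldn16, had a change of -0.07 (SE 0.21, adjusted p = 0.842). Over all mgb-/- kidneys the neighbours Lppos (-0.74, limma adjusted p = 0.00733) and Il1rap (-0.37, adjusted p = 0.0368) were lower, both short of 2-fold. The remaining neighbours did not pass the adjusted p there.

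**Figure D3:**
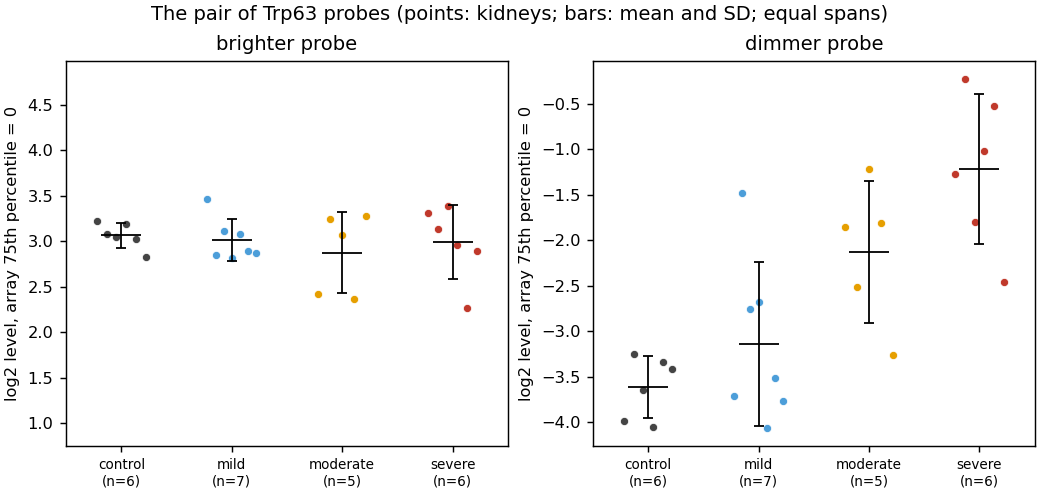
Log2 level of the brighter (left) and the dimmer (right) Trp63 probe (y axis, 0 is the array's 75th percentile, both axes with the same span) in the 24 kidneys by grade (x axis); points are kidneys, bars the mean and SD. The brighter probe stays between 2.27 and 3.46 in all groups, while the dimmer probe runs from -4.06 to -0.22 and its severe kidneys lie above all controls.

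Over all 18 mgb-/- against 6 control kidneys, 2 of the 9 factors rose, Grhl3 by 2.15 (SE 0.61, limma adjusted p = 0.0231) and Ehf by 1.25 (SE 0.31, adjusted p = 0.0128), where 1.82% of genes were called higher. Grhl3 lost that call without control replicate 1, 3 or 4 (adjusted p between 0.0520 and 0.0581), which left Ehf. With Grhl2, 3 of the 9 passed the adjusted p alone, where 5.34% of genes did so upward. Klf5 had a change of 1.05 (SE 0.40, adjusted p = 0.0821) and was called without moderate replicate 5 (1.14, adjusted p = 0.0426). Between grades, 2 of the 9 factors rose from mild to severe kidneys (Grhl3 and Foxa1, where 0.454% of genes were called higher). The study had listed both as higher in severe than in mild kidneys on these same samples, so this count is not independent of that choice. In a limma fit on severe and mild kidneys alone neither was called (adjusted p = 0.0787 for Grhl3 and 0.128 for Foxa1). With limma no factor was called in moderate against control, moderate against mild or severe against moderate kidneys, where 0.529%, 0.0% and 0.00358% of genes were called higher. At an unadjusted p under 0.05, 3, 1 and 6 of the 9 factors were higher in these comparisons, beside 8.10%, 2.11% and 6.22% of all genes.

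Within groups, the same kidneys were the lowest for many factors. In the moderate group, moderate replicate 5 was the lowest of its group for Grhl3, Foxa1, Elf3, Klf5, Pparg and the dimmer Trp63 probe, and moderate replicate 2 was the lowest for Grhl2, Gata3 and Ehf. Control replicate 4 was the lowest control for Grhl3, Foxa1, Gata3, Elf3, Ehf, Klf5, Pparg and the dimmer Trp63 probe, and severe replicate 6 was the lowest severe kidney for the same genes and for Grhl2.

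Over the grades, the mean level was higher at each step from control over mild and moderate to severe for Grhl3, Foxa1, Elf3, Klf5 and Pparg. Grhl2, Gata3 and Ehf had means in mild kidneys (0.71, 2.58 and 1.27) at or above those in moderate kidneys (0.66, 2.58 and 0.78). From mild to moderate kidneys Grhl2 changed by -0.04 (SE 0.25), Gata3 by -0.005 (SE 0.24) and Ehf by -0.49 (SE 0.36, limma adjusted p = 0.927). No factor was called between mild and moderate kidneys.

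Within slides, of which there were 3 with 2 control and 6 mgb-/- kidneys each (1, 2 and 3 of them severe), the direction of the severe change was the same as in the whole for all factors but Trp63. Grhl3 was higher in severe than in control kidneys by 5.50, 3.42 and 3.04 on the 3 slides, Foxa1 by 4.87, 2.39 and 2.25, and Klf5 by 3.11, 1.90 and 1.44. Ehf was higher in mild than in control kidneys by 1.44, 0.95 and 1.48. The Grhl3 difference between severe and mild kidneys was 4.58, 2.43 and 1.74. The order of mild and moderate kidneys was not the same on all 3 slides. Moderate minus mild was 0.28, -0.77 and 0.71 for Grhl2 and 0.22, -0.51 and 0.62 for Gata3. For Ehf it was -0.06, -1.31 and 0.43, and the third slide held 1 moderate kidney.

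Across the 18 mgb-/- kidneys the factors were set against each other and against markers of urothelium and collecting duct. Controls were left out so that the difference between genotypes could not make a relation. In all, 54 relations were tested by two-sided permutation tests, 36 between pairs of factors, 9 between a factor and the mean level of the uroplakins (Upk1a, Upk1b, Upk2, Upk3a and Upk3b) and 9 between a factor and the mean of 6 collecting duct markers (Aqp2, Aqp3, Avpr2, Scnn1b, Hsd11b2 and Fxyd4). Grhl3 followed the uroplakins almost point for point (Pearson's r = 0.994, Spearman's rho = 0.996, permutation p = 1e-05 for each, the smallest that 100000 resamples can give, adjusted p = 4.91e-05 and 6.75e-05). Without mild replicate 1 and severe replicate 2, the kidneys farthest from the median uroplakin level, r was 0.991. After centring each grade it was 0.984, and within the 3 slides it was 0.996, 0.992 and 0.999.

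Foxa1 (r = 0.968, rho = 0.961), Klf5 (r = 0.875, rho = 0.845), Pparg (r = 0.809, rho = 0.709), Gata3 (r = 0.739, rho = 0.721) and Elf3 (r = 0.685, rho = 0.684) were also related to the uroplakin mean, with adjusted permutation p between 4.91e-05 and 0.00458. After centring each grade Elf3 no longer was (r = 0.358, adjusted p = 0.185). Ehf (r = 0.429, adjusted permutation p = 0.105) and Grhl2 (r = 0.459, adjusted p = 0.0838) missed the threshold by r, while their rho of 0.505 (adjusted p = 0.0496) and 0.585 (adjusted p = 0.0199) passed it.

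The collecting duct mean gave another order. Ehf was related to it most closely (r = 0.792, rho = 0.707, adjusted permutation p = 2.52e-04 and 0.00322), followed by Grhl2 (r = 0.620, rho = 0.589, adjusted p = 0.0111 and 0.0194) and Gata3 (r = 0.576, rho = 0.598, adjusted p = 0.0233 and 0.0184). Without moderate replicates 1 and 2, the kidneys farthest from the median of that mean, r was 0.692 for Ehf, 0.567 for Grhl2 and 0.512 for Gata3. On the first slide these relations were weak, with r = 0.403, 0.215 and 0.115 over 6 kidneys. Grhl3 (r = 0.09, rho = 0.10, adjusted permutation p = 0.739 and 0.746) and the other 5 factors, with r from 0.07 to 0.26, did not pass. Whether Ehf and Grhl3 differ in their relation to either mean was not tested. The share of all genes that would pass with either mean was not counted, so these relations do not mark the factors out.

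**Figure D4:**
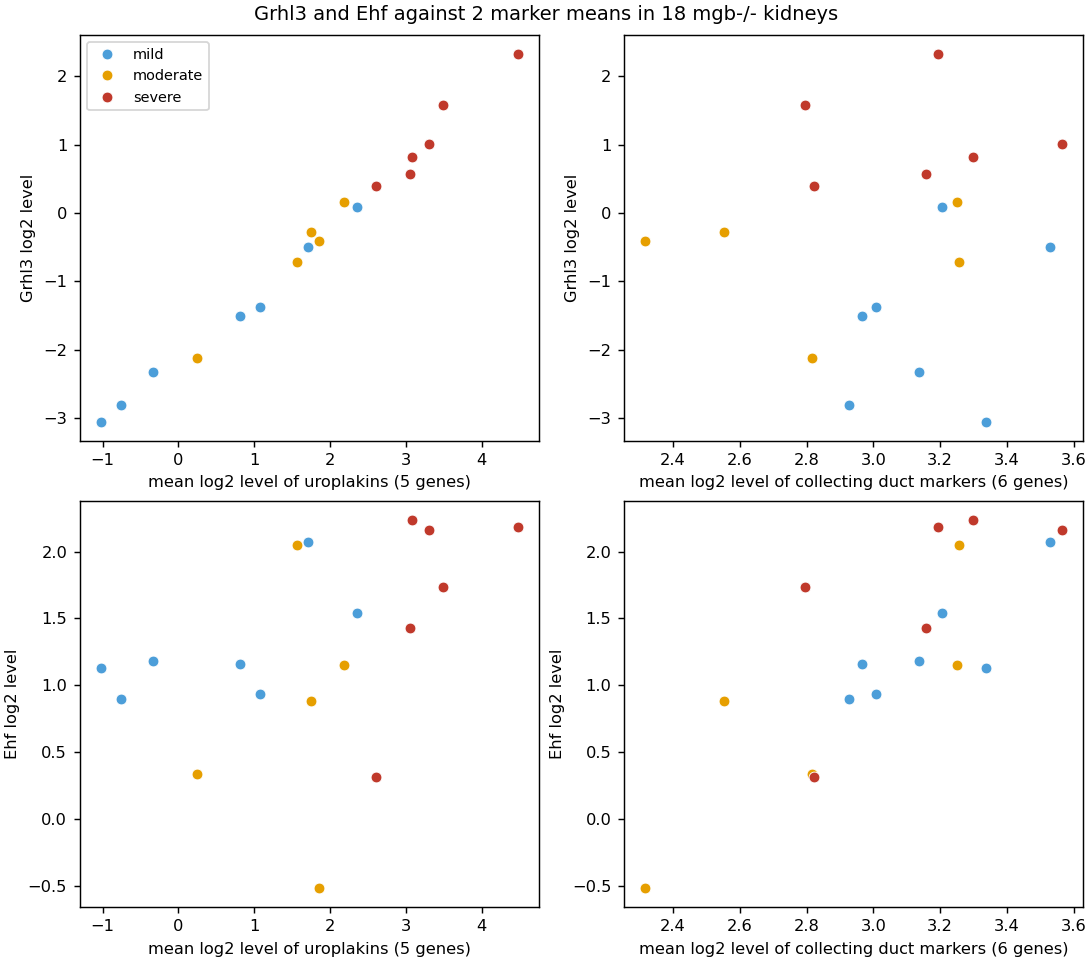
Log2 level of Grhl3 (upper panels) and Ehf (lower panels) on the y axes against the mean log2 level of the uroplakins (left) and of the collecting duct markers (right) on the x axes, 1 point for each of 18 mgb-/- kidneys, coloured by grade. Grhl3 lies on a line with the uroplakins (r = 0.994) and scatters against the collecting duct markers (r = 0.09), and Ehf has r = 0.429 with the uroplakins and r = 0.792 with the collecting duct markers.

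Among the 36 pairs of factors, 21 passed by Pearson's r and 27 by Spearman's rho, 20 passed after centring each grade, and r ran from -0.41 to 0.970 with a median of 0.691. The share of all gene pairs that would pass was not counted, so these counts do not mark the factors out. Over all 24 kidneys, Foxa1 ranked 27 of 16269 named genes by r with Grhl3 (0.957), but Grhl3 ranked 1216 by r with Grhl2 (0.675). Grhl3 and Foxa1 were the closest pair (r = 0.970, rho = 0.967, adjusted permutation p = 4.91e-05 and 6.75e-05, and r = 0.988, 0.980 and 0.910 within slides). Grhl2 and Ehf were next by r (r = 0.907, rho = 0.895), while by rho Grhl2 with Gata3 (0.917) and Gata3 with Klf5 (0.909) were closer, and r between Gata3 and Ehf was 0.868. Klf5 was related to each of the other 7 factors outside Trp63, with r from 0.693 with Ehf to 0.896 with Foxa1. All 8 pairs with the brighter Trp63 probe had r below 0 and none passed by r or rho, but after centring each grade those with Klf5 (r = -0.60, adjusted permutation p = 0.0179) and Elf3 (r = -0.53, adjusted p = 0.0445) did. The dimmer Trp63 probe, tested afterwards in 11 further relations, followed Foxa1 (r = 0.963, rho = 0.950, adjusted permutation p = 2.20e-05 and 2.75e-05) and the uroplakins (r = 0.914, rho = 0.893), and its r with the brighter probe was -0.28 (rho = -0.16, adjusted p = 0.284 and 0.535).

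**Figure D5:**
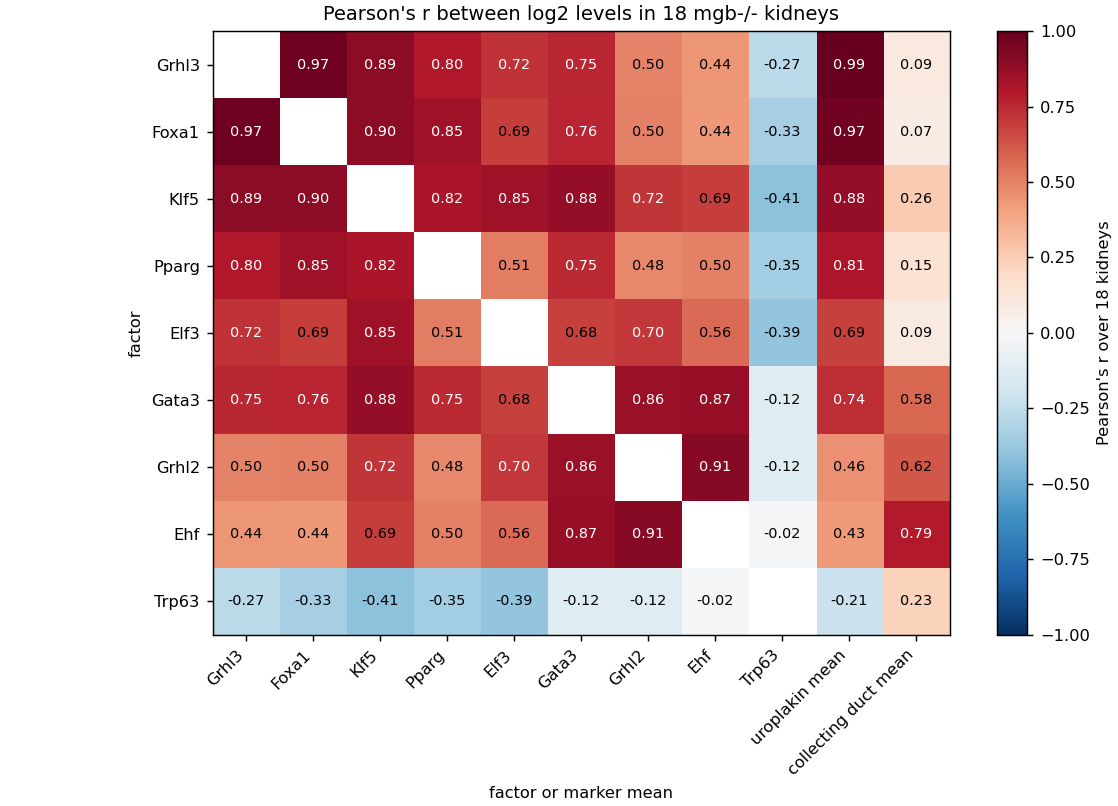
Pearson's r between the log2 levels of each pair of factors, and of each factor with the mean of the uroplakins or of the collecting duct markers, over 18 mgb-/- kidneys (colour scale from -1 to 1, Trp63 by its brighter probe). The uroplakin column falls from 0.99 for Grhl3 to 0.43 for Ehf and -0.21 for Trp63, while the collecting duct column is highest for Ehf at 0.79.

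The named genes with the most similar pattern over all 24 kidneys, out of 16269 with a value on every array, give another view of the factors. For Grhl3 they were Sprr1a, Tmem40 and Upk1b (r = 0.995, 0.993 and 0.993), and for Foxa1 Tmprss13, Fxyd3 and Vsig2 (0.983, 0.981 and 0.980). For Klf5 they were Oit1, Hid1 and Klrg2 (0.972, 0.966 and 0.964), and for Pparg Anxa8, Shh and Galnt16 (0.925, 0.904 and 0.901). Ehf had Slc35g1, Grhl2 and Tle1 (0.941, 0.938 and 0.934), and Grhl2 had Pls3, Abcc1 and St14 (0.952, 0.950 and 0.948). Gata3 had Il17re, Tbc1d2 and Rab15 (0.942, 0.941 and 0.941), and Elf3 had Cd9, Lrfn4 and Nectin2 (0.881, 0.875 and 0.873). For the brighter Trp63 probe they were Git2, Arhgap17 and Crebbp (0.960, 0.959 and 0.955).

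Relatives and partners of the factors were listed too. Of 16, 14 could be tested (Foxa2 and Foxa3 could not). In severe against control kidneys 2 rose, where 2.99% of all genes were called higher, and none fell. The median log2 change of the 14 was 0.28, beside 0.02 over all genes. Grhl1, the third grainyhead factor, rose by 2.38 (SE 0.35, limma adjusted p = 2.98e-04) in severe and by 1.63 (SE 0.34, adjusted p = 0.0207) in severe against mild kidneys. Gata6 lay above all 6 controls in all 18 mgb-/- kidneys, with a change of 1.78 (SE 0.28, adjusted p = 0.00114) in mild and 1.59 (SE 0.29, adjusted p = 0.00181) in severe kidneys. The share of all genes separated in this way is not given here. Rxrb, a partner through which Pparg binds DNA, passed the adjusted p in severe kidneys with a change of -0.43 (SE 0.10, adjusted p = 0.0113), short of 2-fold, and Rxra had a change of -0.56 (adjusted p = 0.0946).

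Genes known as targets of the factors were called in part. In severe against control kidneys 2.99% of all genes were called higher and 1.73% lower. Of 9 p63 targets, whose median change was 0.82 beside 0.02 over all genes, 4 rose in severe kidneys. They were the basal keratins Krt14 (3.53, SE 0.49, limma adjusted p = 1.75e-04) and Krt5 (3.22, SE 0.69, adjusted p = 0.00648), the cell cycle inhibitor Sfn (2.14, SE 0.37, adjusted p = 0.00109) and the hemidesmosome integrin Itgb4 (1.36, SE 0.32, adjusted p = 0.0104). Itga6, the partner of Itgb4, had a change of 0.11 (adjusted p = 0.580). The study had listed Krt14 as higher in severe than in mild kidneys on these same samples. The count of p63 targets is therefore not independent of that choice. Of 9 grainyhead targets, Cldn4, a tight junction claudin, rose by 2.45 (SE 0.56, adjusted p = 0.00835), 3 more passed the adjusted p below 2-fold (Esrp1 with 1.00, Epcam with 0.75 and St14 with 0.76), and Tgm1, an enzyme of the cornified envelope, passed it with a change of -0.88 (SE 0.23, adjusted p = 0.0169). Of 7 PPARgamma targets none rose in severe kidneys. Cd36, a fatty acid transporter, fell by 2.50 (SE 0.59, adjusted p = 0.0100), and the median of the 7 was -0.49. In mild kidneys 1 of the 7 was called lower too, and their median was -0.03. In moderate kidneys none was called, and their median was 0.23.

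The uroplakins themselves, 5 of 5, rose in severe kidneys, by a median log2 change of 3.19 against control and 2.99 against mild kidneys. Of the 17 urothelial genes listed, these 5 included, 14 rose in severe kidneys, where 2.99% of all genes were called higher against control. The study placed Grhl3, Foxa1, Upk1a, Upk1b, Upk2, Upk3a and Krt14 among urothelial genes found higher in severe than mild kidneys on these same samples. The direction of these genes, and the counts of uroplakins and urothelial genes that rose, are therefore not independent of that choice. The summed level of the uroplakins (log2 of their summed linear levels) ran from 2.59 to 4.13 in control kidneys, 2.17 to 5.75 in mild ones, 3.72 to 5.49 in moderate ones and 6.08 to 7.80 in severe kidneys, the last wholly above the controls. That of the collecting duct markers ran from 6.15 to 6.84, 6.57 to 7.34, 5.86 to 7.17 and 6.58 to 7.36 in the same order of groups. Aqp2, the water channel of principal cells, rose in both mild (1.09, SE 0.28, limma adjusted p = 0.0257) and severe kidneys (1.03, SE 0.29, adjusted p = 0.0230), and no other collecting duct marker was called in either. The part of these cell types in the changes of the factors was not tested.

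Markers of other cell types were listed as well. Of the 6 T cell, 3 macrophage, 4 podocyte, 5 adipocyte and 5 proliferation genes that could be tested, none was called by limma in severe against control kidneys, and 5 of these 23 had an unadjusted p under 0.05, 4 of them with a lower level, beside 31.8% of all genes. The 5 proliferation genes, Mki67, Top2a, Ccnb1, Cdk1 and Birc5, all averaged lower in severe kidneys than in the controls (median -0.97 on the log2 scale). In mild kidneys their median was -1.18 and over all mgb-/- kidneys -0.91, with all 5 at an unadjusted p under 0.05 in both, beside 21.4% and 29.0% of all genes, and none called by limma. By immunostaining, the study reported a larger share of Ki-67-positive cells in the urothelium of severe kidneys than of controls. That is protein in a single tissue, whereas the levels here are RNA of whole kidneys. The part of the genes of these lists in the changes of the factors was not tested. Of 6 proximal tubule markers Slc5a2 fell by 1.16 (SE 0.34, limma adjusted p = 0.0270), and the median over the 6 was -0.54. Adipocyte genes, which Pparg also controls, had a median change of -0.80 in severe kidneys, and their summed level ran from 1.77 to 5.69 in control and from -0.35 to 6.83 in severe kidneys, so that the groups overlapped.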

How the data were processed

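The authors deposited, for each of 24 single-colour arrays, the output of Agilent Feature Extraction 10.10, whose processed signal is an intensity with background subtracted and not normalized between arrays, and a table of intensities normalized by a method not given in the sources used here. The array files name another genome build than the RefSeq table, which served for names and promoters only.

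From the deposited intensities, the log2 processed signal was taken relative to the 75th percentile of all spots on the same array other than controls, without outlier spots and with repeated spots averaged. Of 55681 probes, 26762 were named through RefSeq accessions (GRCm38.p6), and 38834 were kept for being well above background on 5 arrays or more, giving 27958 genes by their brightest probe. No spot was saturated. Comparisons were made in R 4.3.3 by limma 3.58.1, on control and mgb-/- as 2 groups or on control and the 3 grades as 4 groups, with Benjamini-Hochberg adjustment over all genes. The steps were tested on simulated data. Relations used 100000 resamples, and figures matplotlib 3.10.9 in Python 3.11.

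Named genes are the members, the genes of the lists, the 3 most similar genes of each factor, and 5 neighbours on either side of Trp63. The members, lists and tests were chosen with earlier results of these data known. Other settings tried were normexp background correction (offset 50, on median signal and background), quantile normalization, the array median as the scale, the authors' own table, all probes however dim, probes well above background on all 24 arrays, a gene as the mean of its probes, blocks for slide or for replicate number, array weights, no fold minimum, other samples in the fit, omission of each kidney and, chosen after the data were seen, the dimmer Trp63 probe.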

Additional observations from a re-analysis of the deposited data

Results flagged for a closer look

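In severe kidneys, Grhl2 in severe replicate 6 was at 0.13 on the log2 scale, while the other 5 severe kidneys lay between 1.03 and 1.47. The gap was 0.671 of the whole range of the group, above the limit of Dixon's test for 6 values. Of 36 groups examined, 1 was marked in this way, and chance marks about 1 in 20. The same kidney was the lowest severe kidney for Grhl3, Foxa1, Gata3, Elf3, Ehf, Klf5, Pparg and the dimmer Trp63 probe.

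The change from control differed between severe and mild kidneys for Grhl3, by 2.75 (SE 0.46, limma adjusted p = 0.00589, 6 of 6 severe kidneys above all mild kidneys), and for Foxa1, by 2.70 (SE 0.53, adjusted p = 0.0151, 5 of 6 severe kidneys above all mild kidneys). The control kidneys cancel out of these differences. The study had listed both genes as higher in severe than in mild kidneys on these same samples, so their direction is not independent of that choice. In a limma fit on severe and mild kidneys alone neither was called (adjusted p = 0.0787 for Grhl3 and 0.128 for Foxa1). Foxa1 was also not called with the replicate number as a block (adjusted p = 0.0762), without severe replicate 2 (0.0615) or without severe replicate 5 (0.0577).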

How the results depend on the processing

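In severe against control kidneys Grhl3, Foxa1, Klf5 and Ehf were called in all 37 other settings, Grhl2 in 36, Gata3 in 32 and Elf3 in 31. The count of factors called there was 7 and fell to 4 with scaling by the array median, which moved the median of all genes from 0.02 to -0.15 (and to between -0.17 and -0.14 in the other comparisons with control) and gave 0.91 for Grhl2, 0.87 for Gata3 and 0.89 for Elf3. It ranged from 5 to 8 when single kidneys were left out. Dropping the fold minimum could only add calls, and the dimmer Trp63 probe left the log2 changes of the other factors as they were. Leaving out a mild or moderate kidney changed the estimated spread but not the severe or control means. For all mgb-/- against control kidneys the count was 2, 4 with the mean of the 3 grades of the 4-group fit, and 1 to 3 without single kidneys. For mild kidneys it was 1 and became 0 with scaling by the array median, and 0 to 1 without single kidneys. For moderate kidneys it was 0 and became 1 (Grhl3) with normexp background correction, with the filter on all 24 arrays and with array quality weights, and 0 to 1 without single kidneys. For severe against mild kidneys it was 2, 0 in a fit on these groups alone, 3 with the dimmer Trp63 probe, and 1 to 3 without single kidneys. The number of relations that passed was 30 and ran from 28 to 43. The cause of these differences was not tested.

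Trp63 turned from the brighter probe's -0.07 to 1.16 with the mean of its probes and 2.40 with the dimmer probe in severe against control kidneys, to 1.92 in severe against mild and to 1.39 in mgb-/- against control kidneys.

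Replicate numbers did not pair the kidneys: over 33 pairs of kidneys with the same number in different groups, deviations from the group mean had r from -0.55 to 0.65 (median 0.00), and 6 of 24 kidneys correlated best with their own number. With the replicate number as a block the counts were 2 for mgb-/-, 0 for mild, 0 for moderate and 7 for severe kidneys against control, 1 for severe against mild, and 0 for both other comparisons, and 43 relations passed.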

Other observations

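Snx31, a sorting nexin known from umbrella cells, fell by 1.52 in mild against control kidneys (SE 0.37, limma adjusted p = 0.0187) and was 2.60 higher in severe than in mild kidneys (SE 0.37, adjusted p = 0.00314), while its change in severe against control kidneys was 1.09 (SE 0.38, adjusted p = 0.0567). Krt15, a keratin of basal cells, had a change of -0.13 (SE 0.36, adjusted p = 0.904) in mild kidneys and rose by 2.89 (SE 0.38, adjusted p = 1.36e-04) in severe kidneys.

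Klf4, the relative of Klf5, was higher in mild kidneys by 0.96 (SE 0.22, limma adjusted p = 0.0129), short of 2-fold, and its change in severe kidneys was 0.48 (SE 0.23, adjusted p = 0.146). The difference between severe and mild kidneys was -0.48 (SE 0.22, adjusted p = 0.429).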
